A study of Pimephales promelas with 191 samples.

Results

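This section describes 100 liver genes of the fathead minnow that were higher 6 h after the start of exposure than at 24, 48 and 96 h, and that stayed at nearly one level over those later times. They were drawn from the 26150 genes of the deposited count table. A gene entered if its median over libraries was 1 to 500 CPM (counts scaled to a common column total), which 13268 genes met. For each gene the 4 treatment means of log2(CPM + 0.1) were averaged at each time, and the gap was the 6 h value minus the highest of the 3 later values. The gap was above 0 in 2652 genes, and in 342 of these the range of the later values was under 0.5 of the gap. The members are the 100 of these 342 with the largest gap relative to the pooled SD within groups. The members were thus chosen by their level at 6 h relative to later times, and that level is given as a description, with no test.

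The libraries come from livers of adult male Pimephales promelas, a small freshwater fish of aquatic toxicology. They fall into 16 groups. Fish were kept with 41 µg/L metformin, with 100 µg/L of guanylurea, with a mixture of both at those concentrations, or as a control, and livers were collected at 6, 24, 48 and 96 h. Each group had 12 libraries except guanylurea at 24 h, which had 11. The labels name no vehicle, tank or batch and do not say whether a library is 1 fish, so the p-values reflect only library-to-library spread, which may be technical.

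The liver is the main organ of fuel storage, plasma protein synthesis and clearance of foreign compounds in fish. Its transcript levels are known to follow feeding, handling and the time of day as well as chemical exposure. Metformin, a widely used diabetes drug, acts on liver energy metabolism in mammals, and bacteria in sewage plants turn much of it into guanylurea. Controls were collected at every time, so a level that the controls share is not one of exposed fish alone. The labels give no clock time or date of collection, so time since the start, time since handling and time of day cannot be told apart in these genes.

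The identifiers in the table are the authors' own. None of the 26150 matched the RefSeq gene table of the species (0 of the 100 members), so the members have no names or known roles here, and neither liver markers nor markers of other cell types could be read. Of the members, 4 are given by identifier and the others by their rank among the 100. In whole liver, more RNA per cell and more cells of a type that expresses a gene cannot be told apart.

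Library totals ran from 12.7 to 28.0 M counts. In 8 libraries the correlation with the other libraries of the same group was low, and 1 of them was a 6 h library (control number 3, with a summed level of the members of 5545 CPM). The share of counts in the 10 most abundant genes had group means from 27.2% to 32.2%, lowest in guanylurea at 96 h and highest in the mixture at 48 h. When these few genes take more, the CPM of all others drops. Values are therefore also given after scaling by the trimmed mean of M values (TMM), which sets library sizes by the bulk of the genes.

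Summed over the 100 genes, the median 6 h library held 6194 CPM and the median later library 4694 CPM. At 6 h the lowest, median and highest sums were 5140, 5860 and 6678 CPM with metformin, 3883, 6371 and 7281 with guanylurea, 5434, 6340 and 7327 with the mixture, and 5147, 6154 and 8685 in control. At 24 h they were 3881, 4600 and 5731 CPM with metformin, 3709, 4953 and 6508 with guanylurea, 4295, 4928 and 5659 with the mixture, and 3667, 4679 and 6582 in control. The ranges of the 2 times overlapped in every treatment. At 48 h the medians were 4914 CPM with metformin, 4629 with guanylurea, 4237 with the mixture and 5013 in control. At 96 h they were 4579, 4744, 4536 and 4478 CPM in the same order of treatments. The sum lay above the median later library in 47 of the 48 libraries at 6 h, and above the highest later library in 14. The exception was guanylurea number 11 at 6 h, with 3883 CPM. In that library the 10 most abundant genes took 35.9% of counts, and after TMM scaling its sum was 5126 CPM. After TMM scaling all 48 libraries at 6 h lay above the median later library, and 10 lay above the highest.

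**Figure D1:**
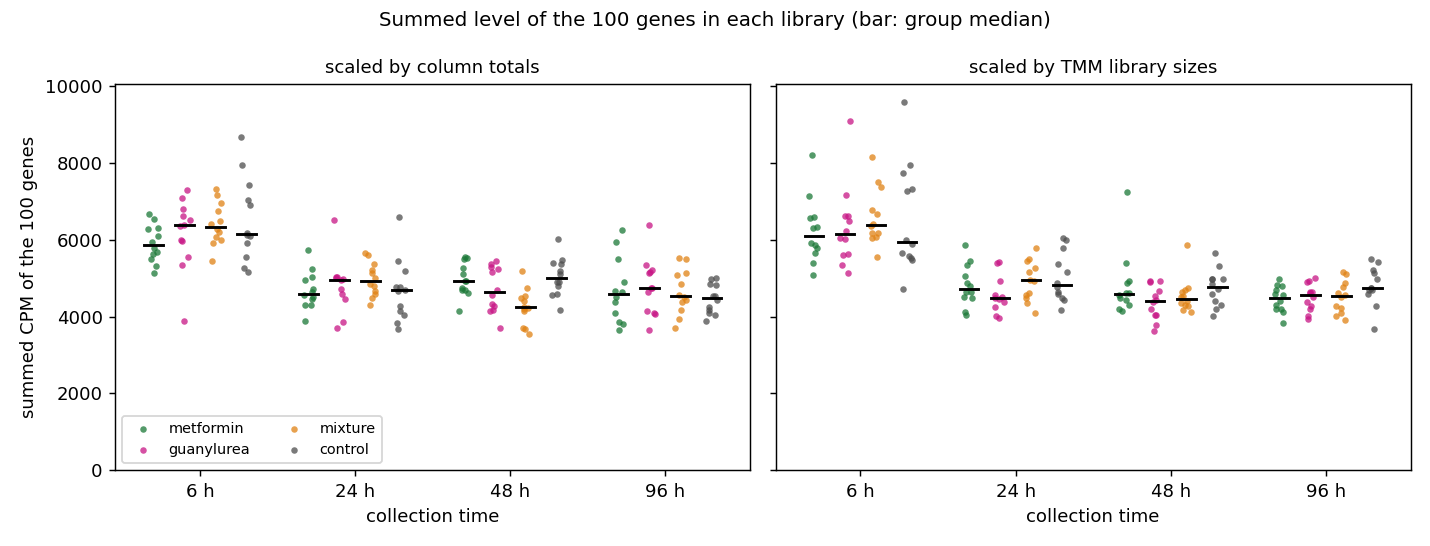
Summed CPM of the 100 genes in each library (points), by collection time and treatment, with CPM scaled by column totals (left) or by TMM library sizes (right); bars are group medians. Every 6 h group median lies at or above 5860 CPM on the left, and the later group medians lie between 4237 and 5013 CPM.

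The differences were small for most members. The gap was 0.28 at the median on the log2 scale (quartiles 0.23 and 0.40), which is a 1.22-fold higher level at 6 h than at the highest later time. It reached 1.5-fold in 6 members and 2-fold in 1, and the quartiles of the fold were 1.18 and 1.32. The pooled SD within groups was 0.33 at the median for the members and 0.49 for the 13268 genes of the CPM range. The ranking divides by this SD, and the members were also more abundant than those genes, and the parts of both in the lower SD were not separated. A member's CPM in a 6 h library exceeded that in a later library in 75.1% of such library pairs at the median, from 67.6% to 93.3% over the 100. No member therefore separated the 6 h libraries from the later ones completely.

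FMg003560 ranked first, with a gap of 0.58 and a gap of 1.83 pooled SDs. At 6 h its lowest, median and highest values were 68.5, 88.9 and 120.7 CPM with metformin, 64.5, 96.3 and 133.1 with guanylurea, 84.3, 112.4 and 128.3 with the mixture, and 64.2, 108.5 and 140.6 in control. At 24 h they were 36.1, 71.0 and 81.7 CPM with metformin, 44.9, 63.3 and 101.0 with guanylurea, 43.2, 66.2 and 102.1 with the mixture, and 36.8, 59.4 and 92.8 in control. Every 6 h median of FMg003560 thus lay above every 24 h median, and the ranges overlapped. At 48 h its medians were 65.7 CPM with metformin, 60.9 with guanylurea, 56.4 with the mixture and 70.9 in control. At 96 h they were 70.7, 61.6, 77.7 and 66.5 CPM in the same order. Of the 48 libraries at 6 h, 46 lay above the median of the 143 later libraries for this gene and 23 above their highest value.

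FMg023099 ranked second, with a gap of 0.55 and 1.83 pooled SDs. At 6 h its lowest, median and highest values were 106.0, 152.1 and 216.4 CPM with metformin, 116.6, 180.0 and 270.6 with guanylurea, 132.5, 190.7 and 288.9 with the mixture, and 121.1, 184.3 and 265.6 in control. Over all treatments its medians at 24, 48 and 96 h were 120.0, 125.6 and 119.3 CPM, against 182.9 CPM at 6 h. The later means of FMg023099 differed by 0.04 on the log2 scale, so its level was nearly the same at those times. As for the first gene, 46 of 48 libraries at 6 h lay above the median later library, and 24 lay above the highest.

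**Figure D2:**
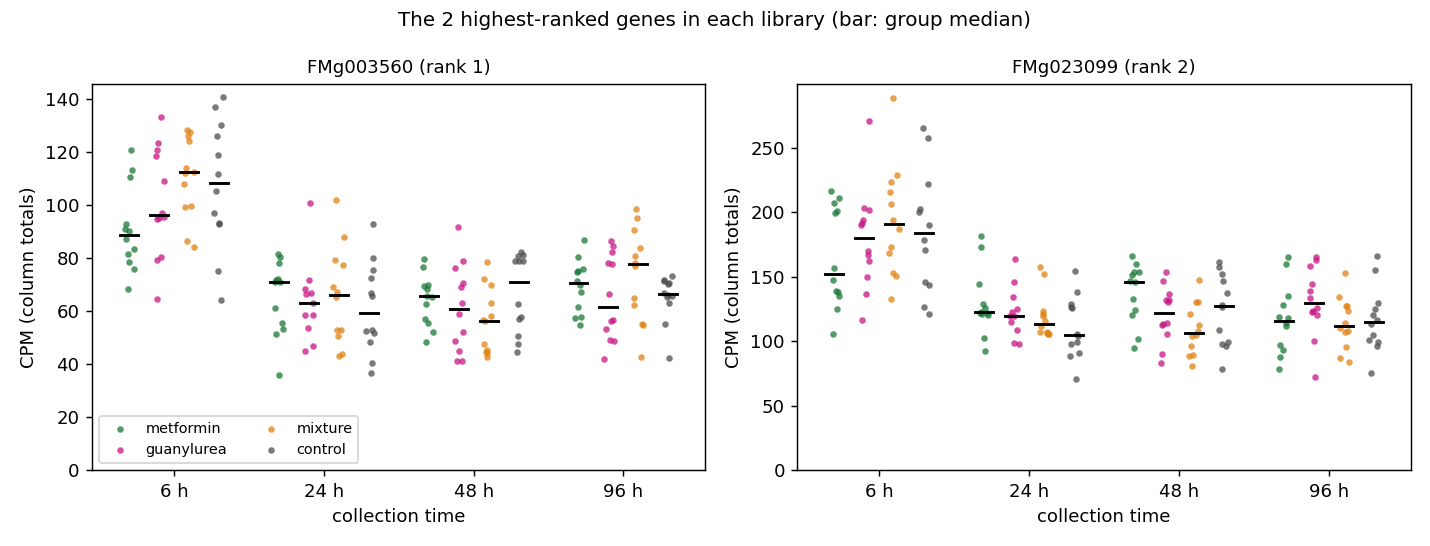
CPM of FMg003560 (left) and FMg023099 (right) in each library (points), by collection time and treatment; bars are group medians. The 6 h medians run from 88.9 to 112.4 CPM and from 152.1 to 190.7 CPM, and the later libraries overlap the lower part of the 6 h libraries.

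The members' levels spanned a wide range. Their median CPM over libraries ran from 2.75 to 370, with 14 members under 10 CPM, 63 from 10 to 50, 9 from 50 to 100 and 14 above 100. The middle member stood at 26.4 CPM, against 8.02 CPM for the middle gene of the CPM range. The median gap was 0.41 for the 3 members at 1 to 5 CPM, 0.28 for the 11 at 5 to 10, 0.26 for the 63 at 10 to 50, 0.31 for the 9 at 50 to 100 and 0.41 for the 14 above 100, so it showed no steady course with abundance. The most abundant member, ranked 78, had medians of 424, 356, 358 and 349 CPM at 6, 24, 48 and 96 h, and 0 of its 48 libraries at 6 h (highest 588 CPM) lay above the highest later one (672 CPM, at 24 h). The least abundant, ranked 66, had medians of 3.41, 2.64, 2.68 and 2.55 CPM.

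The largest gap, 1.04 on the log2 scale, was that of the member ranked 34, whose level also varied most between libraries of 1 group (pooled SD 1.13). Its values ran from 4.05 to 94.3 CPM at 6 h around a median of 23.7, from 0.91 to 43.0 at 24 h around 12.5, from 0.83 to 69.4 at 48 h around 8.42, and from 0.61 to 49.0 at 96 h around 9.27. Its 6 h median was the highest of the 4 times, but only 2 of its 48 libraries at 6 h lay above the highest later one. The smallest gap, 0.16, was that of the member ranked 48, which varied least (pooled SD 0.18). Its medians were 21.4, 19.3, 18.5 and 18.9 CPM at 6, 24, 48 and 96 h, and it is on the list because of its narrow spread.

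The list has no natural end. The last 5 members had gaps of 0.63 to 0.65 pooled SDs, and the next 5 genes, which are not members, had 0.62 to 0.63. Between 24 and 96 h the members' mean levels had a range of 0.09 at the median on the log2 scale (highest 0.34). With column totals the highest of the later values was at 24 h in 44 members, at 48 h in 42 and at 96 h in 14. The lowest was at 96 h in 62. The shares over all genes and the counts with TMM are not given here, so these counts only describe the list. The spread between libraries of 1 group was larger at 6 h than later in 50 of the 100 members, and in 52.3% of the genes of the CPM range.

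The excess at 6 h was present in each treatment, control included. The 6 h mean was the highest of the 4 times in 95 members with metformin, 99 with guanylurea, 100 with the mixture and 99 in control, where 13.5%, 14.0%, 21.0% and 24.6% of the 13268 genes had it. With TMM scaling the counts were 100, 100, 100 and 98, beside 27.1%, 29.6%, 27.5% and 25.9% of genes. The 6 h mean was highest in all 4 treatments in 94 members with column totals (3.38% of genes) and in 98 with TMM (7.64%). The rule averaged these same means, so the counts describe the list and support nothing further.

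How large the excess was in each treatment depended on the scaling. Here the 6 h excess is the 6 h mean minus the mean of the 3 later times within a treatment. With column totals its median over the 100 members was 0.24 with metformin, 0.24 with guanylurea, 0.38 with the mixture and 0.46 in control. The median of all genes of the CPM range moved as well, at −0.10, −0.13, −0.03 and 0.04. With TMM scaling the members stood at 0.33, 0.37, 0.40 and 0.41, and all genes between −0.00716 and −0.00287. Relative to all genes, the members' excess was 0.34, 0.37, 0.41 and 0.41 with column totals and the same to 2 decimals with TMM. With column totals the excess was smaller with the exposure than in control in 84 members for metformin (74.9% of genes), 86 for guanylurea (75.5%) and 69 for the mixture (65.4%). With TMM these counts were 63 (54.0%), 48 (52.6%) and 44 (51.2%). The share of counts taken by the 10 most abundant genes also differed between groups: at 6 h it was 30.3% with metformin, 29.1% with guanylurea, 29.9% with the mixture and 28.0% in control (group means), and at 96 h 28.9%, 27.2%, 28.5% and 32.1%. Its part in the excess was not tested.

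The excess over the single later times also differed. With TMM scaling, the median excess over 24, 48 and 96 h was 0.29, 0.31 and 0.41 with metformin, 0.36, 0.42 and 0.37 with guanylurea, 0.32, 0.46 and 0.45 with the mixture, and 0.35, 0.43 and 0.42 in control. With column totals the mixture had 0.27, 0.52 and 0.37, where its 48 h libraries held the lowest group median of summed CPM.

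**Figure D3:**
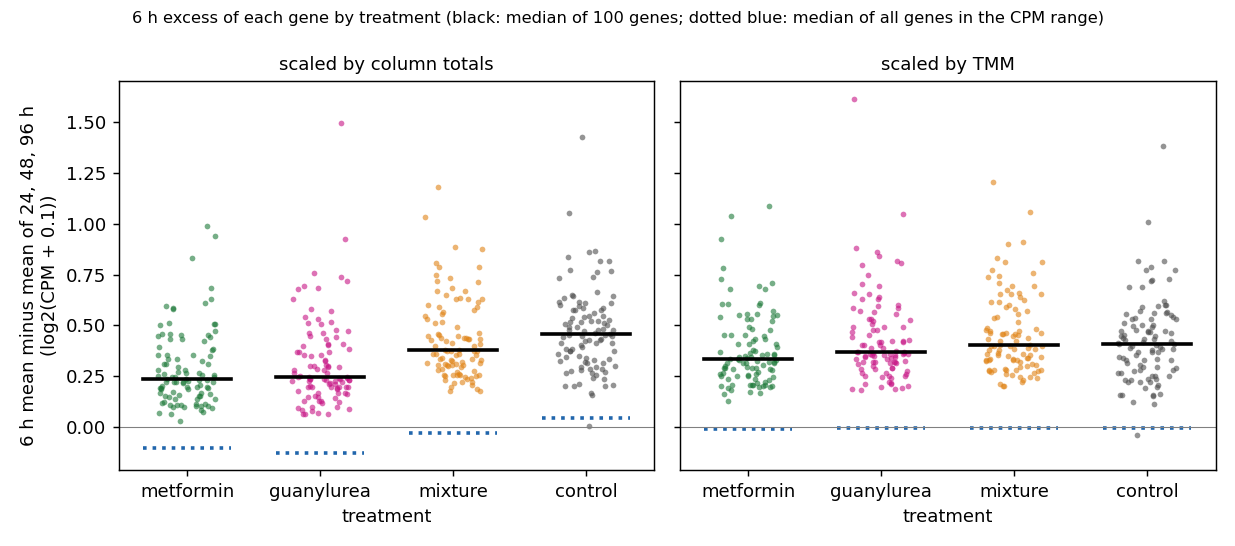
The 6 h mean minus the mean of 24, 48 and 96 h on the log2(CPM + 0.1) scale for each of the 100 genes (points) in each treatment, scaled by column totals (left) or TMM (right); black bars are medians of the 100 genes and dotted blue bars medians of the 13268 genes of the CPM range. The medians run from 0.24 to 0.46 on the left and from 0.33 to 0.41 on the right.

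The rule uses the average of the treatments at each time and not their differences at 1 time, so these differences were tested. The same libraries enter the rule and the tests. The tests here and those of the 6 h excess can therefore depend on the choice of members where the spread differs between groups. At 6 h the SD of the summed CPM with column totals was 1096 in control, 916 under guanylurea, 552 under the mixture and 482 under metformin. With TMM, which the main test uses, it was 1407, 1051, 740 and 844 in the same order. Abundant members weigh most in this sum. The part of this spread in the counts of lower and higher members was not tested. All 100 members passed the low-count filter. At 6 h no member was called for metformin, guanylurea or the mixture against control in edgeR's quasi-likelihood test (lowest Benjamini-Hochberg adjusted p over the members 0.795, 0.739 and 0.9998), where 0% of 16112 genes were called in each comparison. DESeq2 and limma voom called 0 members as well. At an unadjusted p under 0.05, 17 members passed with metformin, of which 16 were lower and 1 higher than control, beside 2.99% and 2.79% of all genes. DESeq2 had 16 lower and 1 higher, limma voom 12 and 0, and edgeR with the replicate number as a block 11 and 0. The shares of all genes in these alternatives are not given here. In the main edgeR test 4 members were lower and 1 higher with guanylurea, beside 3.35% and 2.59%. With the mixture 0 were lower and 1 higher, beside 2.25% and 1.28%. EdgeR with column totals gave 28 lower and 0 higher members for metformin (5.71% of genes in either direction), 6 and 0 for guanylurea (6.01%) and 1 and 1 for the mixture (3.21%). All 3 comparisons use the same 12 control libraries.

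At 6 h the fitted log2 fold change lay below 0 for 75 members under metformin (53.8% of all genes), 73 under guanylurea (51.4%) and 63 under the mixture (54.9%). With column totals as library sizes these counts were 88 (65.9% of all genes), 80 (59.7%) and 77 (64.0%). The median over the members stood at −0.12 for metformin, −0.08 for guanylurea and −0.04 for the mixture, and the median over all genes at −0.02, −0.01 and −0.02. Taken relative to all genes, the metformin median was −0.10 with either scaling. The 95% interval of a member's difference at 6 h reached 0.28 to either side at the median, and it lay within 2-fold for 99 members under metformin, 98 under guanylurea and 98 under the mixture. Within 1.5-fold it lay for 76, 79 and 90 members. The 6 h log2 fold change of FMg003560 over control was −0.19 (95% interval −0.45 to 0.06) for metformin, −0.05 (−0.31 to 0.20) for guanylurea and 0.06 (−0.19 to 0.32) for the mixture. For FMg023099 it was −0.09 (−0.39 to 0.21), −0.01 (−0.31 to 0.29) and 0.10 (−0.20 to 0.40). Metformin and guanylurea were given at different concentrations, so their values stand side by side without a comparison.

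At 24 h members below control numbered 72 with metformin (46.7% of all genes), 84 with guanylurea (49.8%) and 70 with the mixture (49.5%), with median log2 fold changes of −0.06, −0.12 and −0.03. With column totals the counts were 45 (33.1% of all genes), 32 (23.2%) and 12 (23.2%), where the median of all genes lay at 0.09, 0.17 and 0.12. The direction of these medians at 24 h thus depends on the scaling, while the position relative to all genes was −0.08, −0.12 and −0.03 with TMM and −0.08, −0.11 and −0.03 with column totals. No member was called at 24 h, where edgeR called 0%, 0.0122% and 0% of genes, and an unadjusted p under 0.05 was reached by 8 lower and 1 higher member with metformin (3.16% and 4.11% of genes), 11 and 0 with guanylurea (4.56% and 3.90%) and 0 and 0 with the mixture (1.49% and 1.85%). With column totals these were 2 lower and 2 higher members for metformin (6.01% of genes in either direction), 0 and 1 for guanylurea (13.2%) and 0 and 3 for the mixture (5.09%), so the larger number of lower members under metformin and guanylurea did not hold with column totals. DESeq2 and limma voom also called 0 members at 24 h.

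At 48 h 51 members lay below control with metformin (53.2% of all genes), 78 with guanylurea (54.2%) and 70 with the mixture (55.5%), or 60 (57.1%), 72 (48.4%) and 97 (79.4%) with column totals. At 96 h the counts were 75 (51.0%), 51 (49.6%) and 66 (48.5%), or 22 (27.4%), 21 (31.6%) and 22 (30.0%) with column totals, where the 10 most abundant genes of the control libraries took the larger share given above. EdgeR called 0 members at 48 and 96 h. At 48 h it called 0%, 0.0120% and 0.0120% of genes with metformin, guanylurea and the mixture, and at an unadjusted p under 0.05 there were 2 lower and 2 higher members with metformin (3.20% and 2.41% of genes), 6 and 0 with guanylurea (3.96% and 2.17%) and 8 and 0 with the mixture (5.32% and 3.06%). Column totals gave 3 lower and 0 higher members for metformin (3.98% of genes in either direction), 3 and 0 for guanylurea (5.09%) and 40 and 0 for the mixture (19.5%), where the lowest edgeR adjusted p was 0.0927. DESeq2 and limma voom called 0 members at 48 h, and at 96 h with metformin and the mixture.

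**Figure D4:**
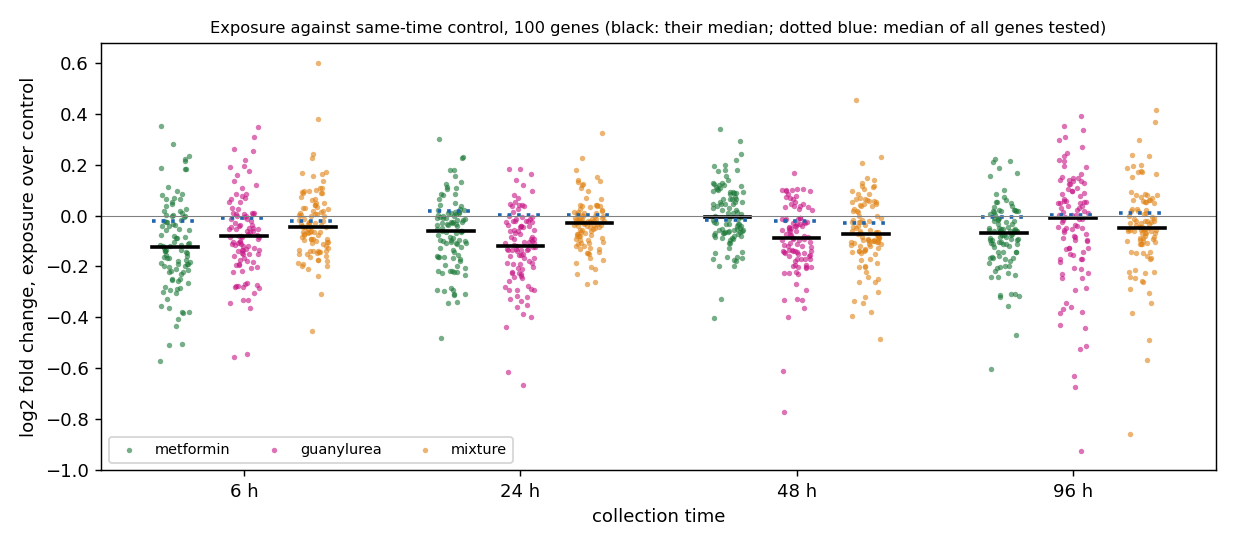
Log2 fold change of each exposure over the control of the same time for each of the 100 genes (points), from edgeR with TMM scaling; black bars are medians of the 100 genes and dotted blue bars medians of all genes tested. The medians lie between −0.12 and −0.0035, and 0 of the points passed an adjusted p of 0.05.

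Guanylurea at 96 h was the comparison with most calls over all genes (2.79% of 16436, or 458), and edgeR called 0 members in it. Over all genes this count was 12 with the replicate number as a block, 26 in limma voom, 49 without the libraries of low agreement and 697 in DESeq2. DESeq2 called 4, ranked 5, 8, 39 and 40 and all lower with guanylurea, and limma voom called 0. An unadjusted p under 0.05 was reached by 13 members, 10 lower and 3 higher, beside 10.8% and 9.12% of genes. Column totals turned the balance, with 4 lower and 22 higher members beside 24.2% of genes in either direction. With metformin at 96 h 6 were lower and 0 higher (4.78% and 3.39% of genes, 0% called), and with the mixture also 6 and 0 (5.66% and 4.35%, 0.158% called). With column totals there were 0 lower and 3 higher members for metformin (12.9% of genes in either direction) and 0 and 4 for the mixture (11.5%), so the direction of these counts rests on the scaling. Nearest to a call for guanylurea was the member ranked 40, with a lowest, median and highest value of 112, 196 and 341 CPM with guanylurea, against 172, 299 and 361 CPM in control. Its log2 fold change was −0.63 (SE 0.19, edgeR adjusted p = 0.0513). DESeq2 gave it an adjusted p of 0.0256 and limma voom one of 0.0681, and with column totals it was −0.42 with an edgeR adjusted p of 0.140. The member ranked 39 had 30.7, 49.5 and 108 CPM with guanylurea at 96 h, against 26.7, 108 and 178 CPM in control, for a log2 fold change of −0.92 (SE 0.31, edgeR adjusted p = 0.0830, and 0.0297 to 0.168 over the alternatives). The libraries of the groups overlapped for both members.

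Whether the 6 h excess differed between an exposure and control was tested in 1 fit of all libraries. No member was called for metformin, guanylurea or the mixture (lowest edgeR adjusted p 0.414, 0.235 and 0.903), where 0.0827%, 0.0992% and 0% of 18145 genes were called, nor by the test over all 4 treatments (lowest 0.546, 0.242% of genes called). DESeq2 and limma voom called 0 members in each. At an unadjusted p under 0.05 the excess was smaller in 7 members and larger in 2 with metformin (3.27% and 3.74% of genes), in 0 and 5 with guanylurea (4.67% and 4.70%) and in 0 and 2 with the mixture (2.55% and 1.98%), and 4 members reached it over all treatments (5.94%). With column totals the excess was smaller in 25 members and larger in 0 for metformin (8.76% of genes in either direction), 18 and 2 for guanylurea (12.7%) and 0 and 2 for the mixture (4.25%), and 15 reached it over all treatments (6.77%). In this fit, with TMM, the excess was smaller than in control for 66 members under metformin, 51 under guanylurea and 49 under the mixture (52.8%, 51.1% and 51.4% of genes). Fitted with column totals, these counts were 86, 84 and 68, where the median difference over all genes lay at −0.16, −0.17 and −0.07. The shares of all genes in that fit are not given here. From means of CPM scaled by column totals, the excess was smaller in 74.9%, 75.5% and 65.4% of the 13268 genes. The 95% interval of this difference lay within 2-fold for 97, 98 and 98 members.

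Averaged over the 3 exposures, the difference of the excess from control was called for 0 members (lowest edgeR adjusted p 0.281, 0.171% of genes called). It was smaller under exposure in 60 members (51.7% of genes), and at an unadjusted p under 0.05 it was smaller in 3 and larger in 4 (4.39% and 4.04% of genes). With column totals it was smaller in 84 members (70.0% of genes), and at that p smaller in 18 and larger in 2 (11.3% of genes in either direction). DESeq2 and limma voom called 0. Over the members this difference ran from −0.33 to 0.49, and the lowest adjusted p was that of a member with a larger excess under exposure. FMg000727, ranked 18, had the smallest p among members with a smaller excess under exposure. At 6 h its lowest, median and highest values were 28.3, 41.5 and 55.8 CPM with metformin, 18.3, 46.5 and 68.8 with guanylurea, 35.2, 46.1 and 77.6 with the mixture, and 28.5, 45.9 and 106 in control. The control group reached far above the exposed ones, but the medians of guanylurea, mixture and control were close. The excess of FMg000727 was smaller by 0.33 on the log2 scale under exposure (a difference of −0.33, SE 0.14, edgeR adjusted p = 0.493). For FMg004781, ranked 36, the values were 31.3, 59.9 and 102 CPM with metformin, 38.1, 68.3 and 94.8 with guanylurea, 47.9, 67.7 and 95.02 with the mixture, and 53.1, 76.6 and 99.4 in control. Its difference in the excess was −0.31 (SE 0.14, edgeR adjusted p = 0.528), and neither gene passed the threshold.

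Within groups the members tended to be high or low together in the same libraries. The rule did not use these correlations, but it ranked genes by the pooled SD of the same deviations. The co-variation is therefore not independent of the rule. Over the 4950 pairs of members, the median Pearson correlation of their deviations from the group means, over all libraries, was 0.28 with column totals, against 0.12 for all pairs of the 13268 genes. With TMM scaling the medians were 0.20 for the members and −0.00296 for all genes. All pairs share libraries and their scaling, and the members are more abundant than the other genes, so these values are a description. A first component held 33.1% of the members' variance with column totals and 24.1% with TMM. After TMM scaling 8 pairs correlated above 0.8, and they involved the members ranked 13, 16, 18, 33, 80 and 94. The highest was between ranks 18 and 33, at 0.89. At the other end, the members ranked 100, 38 and 39 had median correlations with the other members of 0.00, 0.01 and 0.02. Because members vary together, their counts in the comparisons above are not counts of separate observations.

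**Figure D5:**
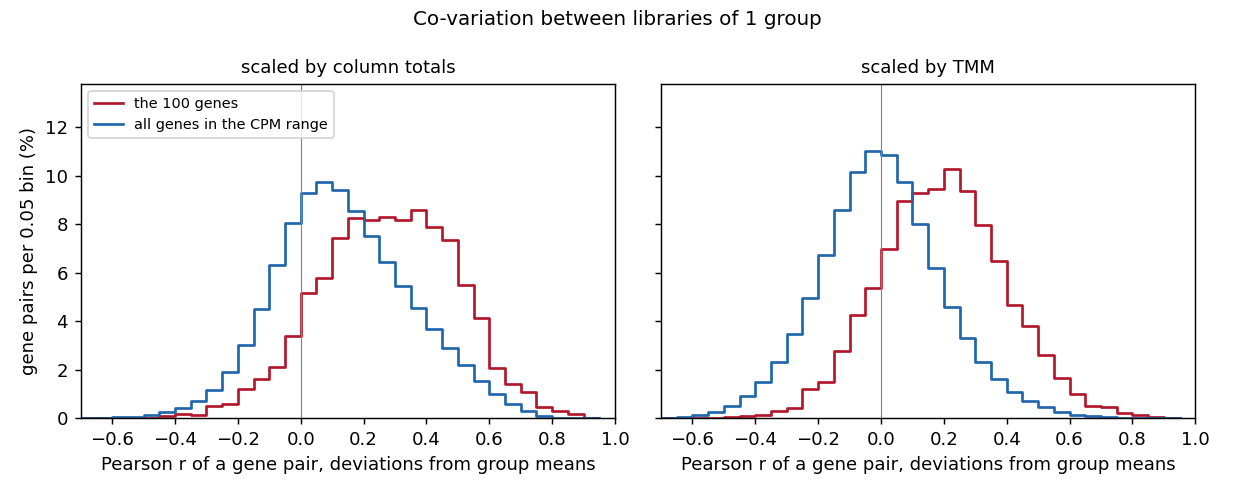
Pearson correlation of gene pairs over all libraries after subtracting group means, as the percentage of pairs in each 0.05 bin, for the 100 genes (red) and all 13268 genes of the CPM range (blue), scaled by column totals (left) or TMM (right). The red curve lies to the right of the blue one in both panels, with medians of 0.28 against 0.12 and 0.20 against −0.00296.

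In the transcript table, 62 of the 100 members had a row with the same count in every library, and none matched more than 1 row. This held for 66.2% of the genes of the CPM range. The other 38 could not be followed by transcript, since the identifiers do not pair transcripts with genes.

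The same rule turned round, for genes lower at 6 h than later, gives a list of other abundance. There 5399 genes had a 6 h value below every later one, and 535 of these were flat later. These counts use column totals, with which the median 6 h excess of all genes lay below 0 in each exposure. The members' rule kept 342 genes with column totals and 506 with TMM, and the mirrored counts with TMM are not given here. The 100 top genes of that mirrored list stood at a median of 5.68 CPM, against 26.4 CPM for the members, and had a median pooled SD of 0.48, against 0.33.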

How the data were processed

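Liver RNA was made into stranded mRNA libraries, per the labels' protocols. Expected counts (estimated counts per gene and per transcript) were deposited by the authors as whole numbers not scaled for depth; bcl2fastq 1.8.4, Bowtie2 2.3.5 and RSEM 1.3.1 are named in the submitters' processing notes. RSEM shares reads among similar genes by an estimate, so near-identical copies have uncertain counts. The genome build and annotation, and the strand setting, were not given in the sources used here. Every column was assigned by its library title (0 unused).

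The members and tests were chosen with earlier results of these data known. Members were found with Python 3.11.15 on CPM by column totals. Rounding altered 0 of the values. The main test was edgeR 4.0.16 under R 4.3.3 (filterByExpr with a minimum count of 10 and total of 15, TMM, robust quasi-likelihood fit, adjusted p under 0.05 over all genes tested). Exposures were compared with control in 1 fit per time, and the 6 h excess in 1 fit of all libraries with 16 group means. The edgeR fits were also run on simulated counts with known changes in guanylurea at 6 h only. Genes were drawn independently there, unlike the members, and the outcome is not given here. Alternatives were limma 3.58.1 (voom, quality weights), DESeq2 1.42.0, other size factors, no filter, the replicate number as a block, 1 fit of all libraries, a threshold of 0.10, and leaving out the 8 libraries whose median correlation with their group lay over 5 median absolute deviations below that of all libraries. Column totals in edgeR were added after the scaling was seen to matter. Identifiers printed are the members ranked 1 and 2 and the 2 of smallest p for a smaller 6 h excess under exposure; ranks 5, 8, 39, 40 and 90 and those in the correlations were picked after their values were seen. Gene lists written for named genes could not be used.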

Additional observations from a re-analysis of the deposited data

How the results depend on the processing

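Over all genes the main edgeR test called at most 2.79% in any comparison, and at most 0.242% outside guanylurea at 96 h. Beside these small shares, the count of members called was 0 in each of 17 comparisons, which is not particular to the list. It was also 0 in 143 of 148 alternative settings. The exceptions were all for guanylurea against control at 96 h: 4 members passed at a threshold of 0.10 and 4 in DESeq2 (ranks 5, 8, 39 and 40 in both, lower), 2 in 1 fit of all libraries (ranks 39 and 40), 1 with DESeq2 size factors (rank 40), and 1 with column totals (rank 90, higher, log2 fold change 0.34, edgeR adjusted p = 0.0408). Over all genes, DESeq2 called 697 of 16436, DESeq2 size factors 463 and column totals 417 of the same genes. The 1 fit of all libraries called 852 of 18145. The count over all genes at 0.10 is not given here, so these few members are not a result particular to the list. Whether the replicate numbers pair the libraries was not settled. The mean correlation of deviations was 0.0269 for same-numbered pairs and −0.00168 for other pairs. Of the same-numbered pairs 32.2% correlated above 0.1, and this share was not computed for other pairs. With the number as a block 0 members were called in each comparison. As a hint from the data only, 22 libraries correlated best with their own number.

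Membership moved more than the calls. Of the 100 members, 72 were also chosen with TMM scaling, 97 with a pseudocount of 1, 82 without the 8 libraries of low agreement, 67 when ranked by the gap alone and 44 when the later range had to be under 0.25 of the gap, a rule that left 122 genes. The median gap ran from 0.27 to 0.33 over its 4 alternatives. The median 6 h excess by treatment ran from 0.24 to 0.46 with column totals and from 0.33 to 0.41 with TMM. Its sign was largely fixed by the rule and is no check. Summing transcripts per gene was not run, because the identifiers do not pair them. With 12 libraries a group, the 95% interval of a typical member at 6 h reached about 0.28 on the log2 scale to either side. This is not the size of difference that the adjusted tests would call. At 96 h with guanylurea the member ranked 40 had a log2 fold change of −0.63 and was not called (edgeR with TMM, adjusted p = 0.0513).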
